A study of Mus musculus with 12 samples.

Results

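The genes described here are 10 that mark or serve antibody secretion: Jchain, Prdm1, Xbp1, Irf4, Sdc1, Mzb1, Hspa5, Sec11c, Edem1 and Slamf7. They were chosen by name, as regulators, surface markers and parts of the secretory apparatus of the plasma cell (PC), and all 10 of the 56941 genes in the count table passed the filter on low counts. The data were 12 bulk RNA-seq libraries of B cells sorted from the peritoneal cavity (PerC) of mice, as naive-type B2 cells (IgD+IgM+) or as IgD-IgM- cells called MemB. KI mice carried Cd21-Cre and the allele R26-LSL-Gpr34Q340X-IRES-GFP, in which Cre removes a stop and Rosa26 then drives GFP and a GPR34 cut short at its end, a form with gained activity. The labels call the other mice control without giving their alleles. Cd21-Cre acts in mature B cells and also in follicular dendritic cells, so the receptor was not changed in B cells alone. The paper reports similar PerC accumulation of PCs and MemB in WT mice given KI bone marrow, and reads the effect as B cell intrinsic. That experiment measured cell frequencies and not RNA. Mice of both sexes were 8 to 20 weeks old, and each genotype had 3 B2 and 3 MemB libraries, labelled as separate biological replicates. Whether B2 and MemB libraries of the same number came from the same mouse is not stated.

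A B cell that becomes a PC changes its work from carrying antibody on its surface to secreting it. IRF4 and BLIMP-1, the product of Prdm1, start this change, and XBP1 then enlarges the endoplasmic reticulum (ER) and its machinery for moving, folding and clearing proteins. The J chain joins units of IgA or IgM into polymers, so its gene is active in cells that export these classes, though it can be transcribed before a cell looks like a PC. The comparison asked here was whether the level of Jchain in KI MemB was accompanied by that of the regulators and the secretory machinery. In bulk samples, a change in the number of cells of a type cannot be told apart from a change in RNA per cell.

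Depth was 29895031 to 39732039 assigned counts per library, of which 29.3 to 38.3% were ribosomal RNA. Levels are given as normalized CPM, counts relative to the library total after scaling by the trimmed mean of M values (TMM). Gpr34, the targeted gene, was at 3.42 to 6.86 normalized CPM in control B2 and 100.2 to 112 in KI B2, and at 18.7 to 30.8 in control MemB and 132 to 168 in KI MemB, so every KI library stood above every control library of its cell type. Counts of the native and the knock-in Gpr34 cannot be told apart. Ighd, which the MemB gate selects against, was 209 to 251 in control MemB and 66.3 to 101 in KI MemB, below the 1295 to 1692 of the B2 libraries. Ighm, also selected against, was still at 2012 to 2685 in control MemB but at 297 to 566 in KI MemB.

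The upstream sequence of 3 members is printed because they stand for the 3 situations met below, a gene that rose (Jchain), one that was higher without passing the test (Edem1) and one that overlapped between genotypes (Hspa5). RefSeq promoters (build GRCm38) were matched for 8 of the 10 members, Mzb1 and Sec11c having no entry. Each run is the 250 bases before the start of the gene, 5′ to 3′ on the strand of the gene. Capitals in Hspa5 mark the ER stress response element, which reads CCAAT, then 9 bases of any kind, then CCACG, and capitals in Edem1 mark CCACG, the part of that element that XBP1 and ATF6 contact, here on either strand. Jchain (chr5:88527898-88528147, minus strand) has no capitals since neither string occurs in its window. Edem1 lies at chr6:108828391-108828640 (plus strand) and Hspa5 at chr2:34771840-34772089 (plus strand).
Jchain: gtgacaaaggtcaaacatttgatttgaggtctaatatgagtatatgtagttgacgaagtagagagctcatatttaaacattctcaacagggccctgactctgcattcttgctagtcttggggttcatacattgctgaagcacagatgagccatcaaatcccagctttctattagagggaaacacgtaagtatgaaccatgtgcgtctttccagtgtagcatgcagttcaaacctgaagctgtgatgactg
Edem1: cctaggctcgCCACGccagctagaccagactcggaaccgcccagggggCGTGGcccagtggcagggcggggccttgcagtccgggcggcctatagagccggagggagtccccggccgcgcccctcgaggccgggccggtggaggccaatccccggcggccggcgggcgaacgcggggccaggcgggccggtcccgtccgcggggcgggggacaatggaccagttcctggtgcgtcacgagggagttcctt
Hspa5: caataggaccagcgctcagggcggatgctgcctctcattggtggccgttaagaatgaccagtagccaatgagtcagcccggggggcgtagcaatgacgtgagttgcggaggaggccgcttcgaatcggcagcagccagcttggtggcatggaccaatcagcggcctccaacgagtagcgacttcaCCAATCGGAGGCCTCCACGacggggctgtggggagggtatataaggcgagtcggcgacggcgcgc

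On both strands, the full element was found in 37 of 32851 windows of this length (0.113%), and Hspa5 was the one member among them, with the match 65 to 47 bases before the start. The CCACG core, which is also the last part of the full element, occurred in 28.3% of all windows and in those of Hspa5, Edem1, Prdm1, Sdc1 and Irf4. The unfolded protein response element TGACGTGG occurred in 0.563% of windows and in none of the 8 members with an entry. These matches describe letters in a window and not binding.

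Jchain was the one member whose rise in KI MemB passed the test over all genes. The gene lies at chr5:88667668-88675750 on the minus strand of GRCm39, the build of the counts, and overlaps no other annotated gene. It was at 152, 72.0 and 196 normalized CPM in the 3 KI MemB libraries and at 6.70, 5.57 and 18 in control MemB (counts of 2354 to 6029 against 190 to 600), so the lowest KI library was above the highest control library. In B2 the gene was low in both genotypes, at 11.3, 1.94 and 1.62 in control and 2.49, 3.54 and 3.54 in KI libraries, and these groups overlapped. The KI MemB libraries thus stood apart from all 9 others. The rise was 13.9-fold (log2 fold change 3.80 ± 0.68 SE, n = 3 per group, edgeR quasi-likelihood test, Benjamini-Hochberg adjusted p = 0.00495 over 15148 genes), and Jchain ranked 11th by p of all genes. Of all genes tested, 0.284% were called in this comparison, a call being an adjusted p under 0.05 with a log2 change of more than 1 in size, and 1 of the 10 members was. At an unadjusted p below 0.05 the members were 4 (Jchain, Edem1 and Sdc1 higher, Irf4 lower), 40% of them against 11.1% of all genes, and 3 of the 9 without Jchain (33.3%). The Sdc1 value among these rests on 1 library. Without KI MemB replicate 3, the library with the highest level, the log2 fold change was 3.47 and the adjusted p 0.0505, and without control MemB replicate 3 it was 4.51. In every group replicate 3 was the one library with the Xist level of a female (91355 to 105564 counts, against 875 to 2175 in the others), and Jchain was higher in KI MemB among these (196 against 18) as among the male libraries. Since Jchain was picked with this rise known, its own test is given as a description.

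**Figure D1:**
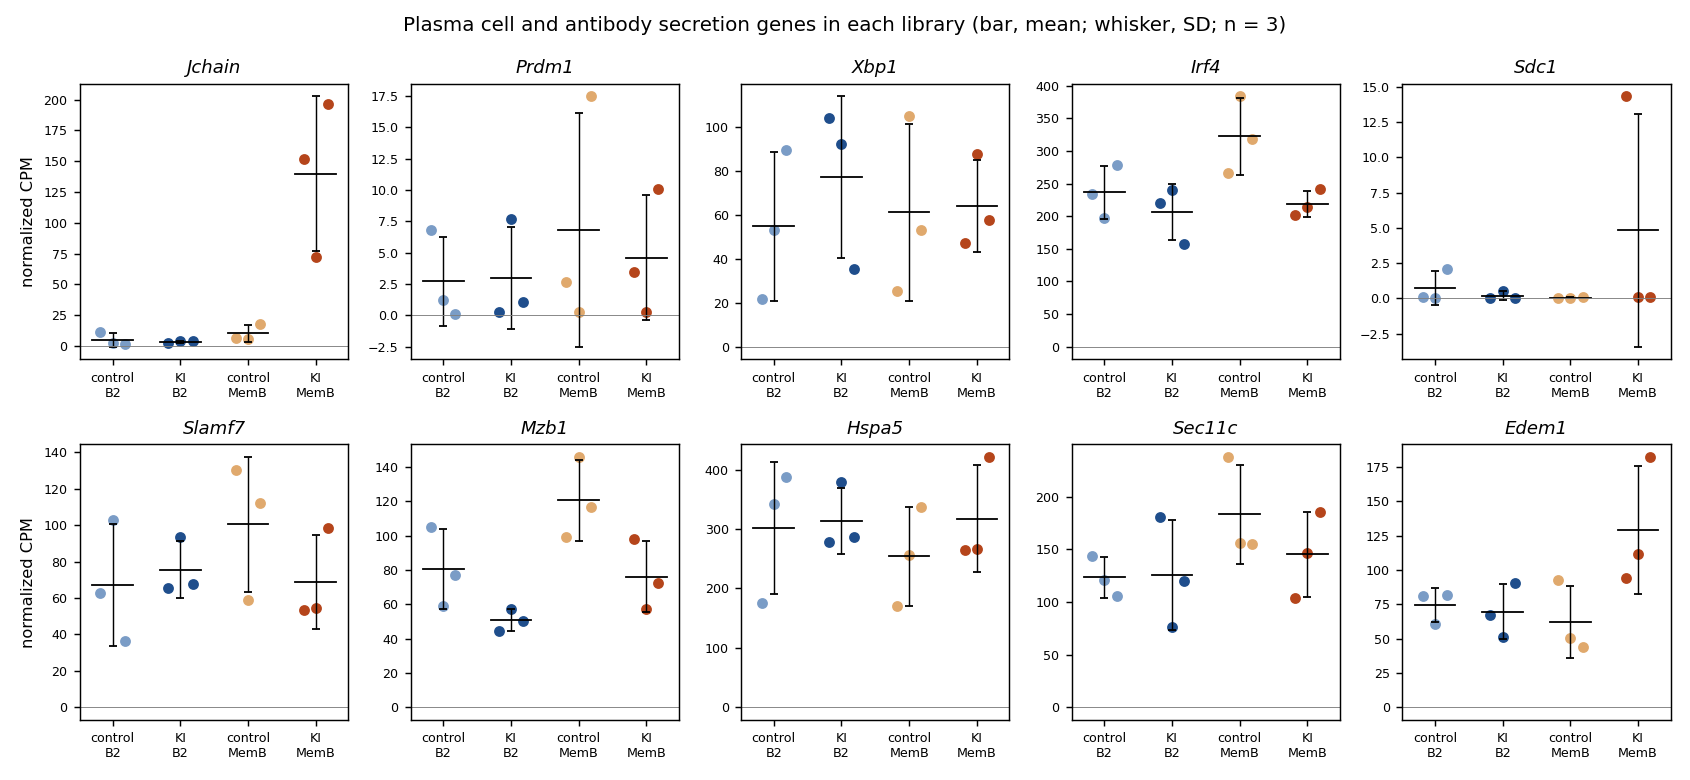
Normalized CPM (y axis, linear, from 0 upward except where a whisker runs below it) of each member in every library, by group on the x axis. Points are libraries, bars means and whiskers SD (n = 3). The 3 KI MemB libraries sit between 72.0 and 196 for Jchain, Edem1 is above control MemB in all 3, and Sdc1 is raised in 1 library only.

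In B2, where 0.0066% of all genes were called, 0 of the 10 members were called by edgeR or by DESeq2, which called 1.21% of all genes, and 0 had an unadjusted p below 0.05, as 5.75% of all genes did. No difference in Jchain was detectable there (log2 fold change -0.63 ± 0.62, adjusted p = 0.989 by edgeR). The difference between the KI effect in MemB and that in B2 was 4.43 ± 0.90 on the log2 scale (adjusted p = 0.0462, edgeR interaction, 3 libraries in each of 4 groups), a comparison in which 0.066% of all genes were called. This call was close to the threshold, and 8 of the 12 single libraries ended it when they were left out. Within KI mice, Jchain was 43.8-fold higher in MemB than in B2 (log2 5.45 ± 0.73, adjusted p = 3.48e-05), against 2.04-fold in control mice (log2 1.03 ± 0.62, adjusted p = 0.582). The control value rests on single libraries, being 0.31 on the log2 scale without control MemB replicate 3 and 2.51 without control B2 replicate 1.

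None of the 3 transcription factors was called in KI MemB. Prdm1 (GRCm39 chr10:44313171-44404497), the gene of BLIMP-1, was at 3.44, 0.306 and 10.1 normalized CPM in KI MemB and at 2.7, 0.293 and 17.5 in control MemB. Its counts were 10 to 584 in these 6 libraries, with low and high libraries in both genotypes. Within control MemB, KI MemB and control B2, though not within KI B2, Prdm1 ordered the libraries as Jchain did. In B2 the spread was as wide, from 0.0919 to 6.78 in control and from 0.255 to 7.67 in KI libraries. The KI effect in MemB was -0.57 ± 1.58 on the log2 scale (95% interval -3.78 to 2.64, adjusted p = 0.947, edgeR), and changes of several-fold were not detectable at this spread.

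Xbp1 (chr11:5470606-5483027), the factor that expands the ER, was at 47.0, 87.3 and 57.5 normalized CPM in KI MemB and at 25.4, 105 and 53.1 in control MemB. The KI values lay inside the control range. The log2 fold change was 0.07 ± 0.49 with a 95% interval from -0.94 to 1.08 (adjusted p = 0.986), and in B2 it was 0.50 ± 0.50 (adjusted p = 0.992). Gene counts do not separate the spliced Xbp1 transcript, which gives the active protein, from the unspliced one.

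Irf4 (chr13:30933209-30950959), needed for PC formation and also induced in activated B and T cells, was lower in KI MemB. It stood at 201, 215 and 241 normalized CPM there and at 266, 384 and 318 in control MemB, so the groups did not overlap, but the difference of -0.56 ± 0.23 on the log2 scale did not pass the test (adjusted p = 0.366, edgeR). The KI MemB levels lay within those of B2 cells, in which Irf4 was 197 to 279 in control and 158 to 240 in KI libraries. Groups did not overlap for 12.1% of all genes in this comparison, and for 4 of the 10 members, Jchain and Edem1 being higher and Irf4 and Mzb1 lower.

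The 2 members that mark the PC surface were not called in KI MemB. Sdc1 (chr12:8820854-8843725), which encodes CD138, the antigen by which PCs are gated, had 421 counts (14.3 normalized CPM) in KI MemB replicate 1 and 2 counts in each of the other 2 KI MemB libraries. Control MemB had 1, 0 and 3 counts, control B2 had 2, 0 and 69, and KI B2 had 0, 22 and 2. The 2 KI MemB libraries with almost no Sdc1 included the one with the highest Jchain. The fitted log2 fold change in MemB was 6.81 (adjusted p = 0.354), and it was 0.64 without KI MemB replicate 1, so that no fold is given for this gene.

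Slamf7 (chr1:171459966-171480603), a receptor present on PCs and on NK, T and other B cells, was at 53.3, 54.4 and 98.5 normalized CPM in KI MemB and at 130, 59.0 and 112 in control MemB. The groups overlapped (log2 fold change -0.55 ± 0.40, adjusted p = 0.660, edgeR). Prdm1, Irf4 and Slamf7 are also genes of T and NK cells, whose markers were lower in KI MemB. Of 13 such markers 11 could be tested, and the fitted change of all 11 was negative, where 48.4% of all genes were fitted higher. By edgeR 1 of them was called, as 0.284% of all genes were. At an unadjusted p below 0.05, 6 were lower and 0 higher (54.5% against 11.1% of all genes). Their summed level was 124 to 188 normalized CPM in control MemB and 16.3 to 55.7 in KI MemB. The part of these cells in the levels of the 3 genes was not tested.

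**Figure D2:**
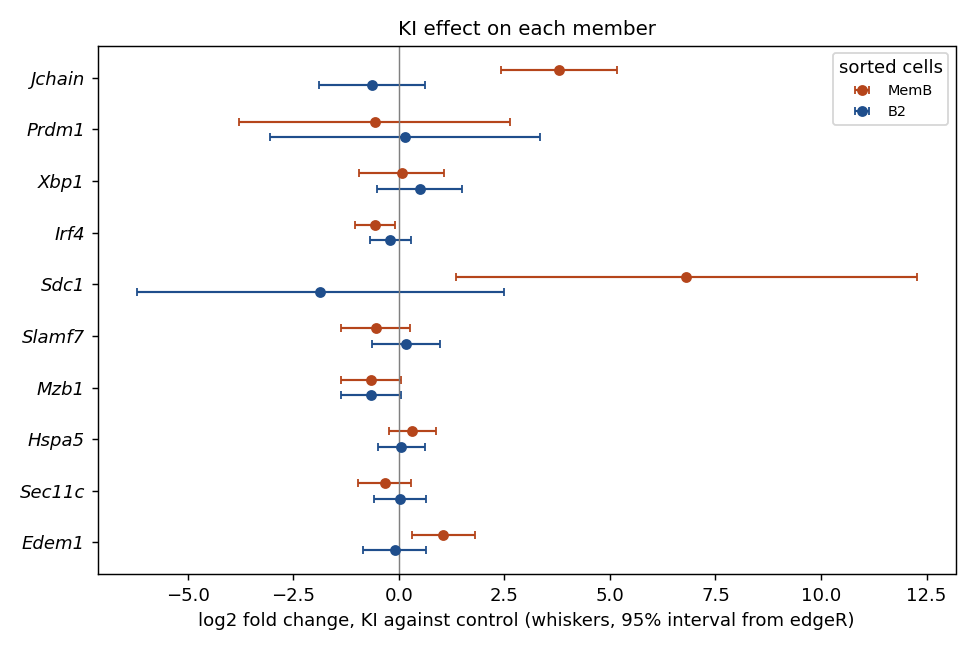
Log2 fold change of KI against control (x axis) for each member (y axis) in MemB and in B2, with 95% intervals from edgeR. Jchain in MemB has an interval of 2.42 to 5.18, apart from that of every other member except the wide intervals of Prdm1 and Sdc1.

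The members that build the secretory pathway had mean levels within 2.08-fold of control in MemB. Edem1 (chr6:108805457-108838955), which hands misfolded glycoproteins over for degradation, was at 94.0, 112 and 182 normalized CPM in KI MemB and at 92.6, 50.1 and 43.8 in control MemB. All KI libraries were above all control libraries, although the lowest KI and the highest control library were close together. The difference was 2.08-fold (log2 1.06 ± 0.37), and it did not pass the test over all genes (adjusted p = 0.320, edgeR). In B2 the genotypes overlapped, at 60.6 to 82.0 in control and 51.3 to 90.9 in KI libraries, and the difference between the KI effects in MemB and B2 was 1.15 ± 0.52 (adjusted p = 0.543). A group without overlap and higher in KI MemB occurred for 6.01% of all genes.

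Mzb1 (chromosome 18), an ER protein that assists antibody assembly and is present in B-1, marginal zone and plasma cells, was lower in KI libraries of both cell types. In MemB it was at 98.3, 57.2 and 72.7 normalized CPM in KI and at 99.3, 146 and 116 in control mice. In B2 it was at 44.4, 57.3 and 50.3 in KI and at 105, 58.9 and 77.1 in control mice. In both cell types every KI library lay below every control library, by a narrow margin, and the log2 fold changes were -0.66 ± 0.35 (adjusted p = 0.484) in MemB and -0.67 ± 0.35 (adjusted p = 0.849) in B2 by edgeR. Of all genes, 6.08% in MemB and 4.99% in B2 showed such an order with KI lower.

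Hspa5 (chr2:34661982-34668880), the gene of the chaperone BiP that holds unassembled heavy chains, was at 265, 267 and 421 normalized CPM in KI MemB and at 170, 256 and 337 in control MemB. Its log2 fold change was 0.32 ± 0.27, with a 95% interval of -0.23 to 0.87 (adjusted p = 0.722). Sec11c (chromosome 18), a catalytic subunit of the signal peptidase, was at 104, 147 and 185 in KI MemB and at 238, 156 and 155 in the controls, and differed by -0.33 ± 0.31 on the log2 scale (interval -0.96 to 0.29, adjusted p = 0.758). Both genes overlapped between genotypes in B2 as well, with log2 fold changes of 0.06 ± 0.27 and 0.02 ± 0.31. Leaving aside Prdm1 and Sdc1, whose spread was wide, the upper 95% limits of the other 7 members in MemB reached 1.81 at most, below the lower limit of 2.42 for Jchain.

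The members were also ordered on a scale per length (normalized CPM per kb of the canonical transcript in GENCODE M39). A change in the place of Jchain between groups restates the rise with which it was picked and adds no test. In control MemB, Jchain was 8th of the 10 at 7.23 ± 4.92 (SD, n = 3), with a range that overlapped that of Edem1 above it and not that of Prdm1 below it. In KI MemB it was 2nd at 101 ± 45.2, between Sec11c at 169 ± 47.3 and Mzb1 at 67.5 ± 18.4, and its range overlapped both. Sec11c was 1st in all 4 groups, and Prdm1 and Sdc1 were the last 2 in all 4. In B2, Jchain was 8th in both genotypes, at 3.55 ± 3.94 in control and 2.29 ± 0.44 in KI mice. Xbp1 took place 6 or 7 in every group, from 27.7 ± 17.2 in control B2 to 39.1 ± 18.7 in KI B2.

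Between the cell types, no member other than Jchain was called. In control mice none of the 10 was called between MemB and B2, where 0.264% of all genes were, and in KI mice Jchain alone was, where 0.363% were. At an unadjusted p below 0.05 there were 0 members in control mice and 2 in KI mice, Jchain and Edem1, against 10.6% of all genes in each, and DESeq2, which called 4.42% and 4.07% of all genes, called the same members as edgeR. Sdc1 and Prdm1 were too scattered for a small difference to be read from this (fitted log2 -4.09 and 1.33 in control mice). In control mice, Sec11c was higher in every MemB than in every B2 library (log2 0.57 ± 0.31, adjusted p = 0.519), an order found for 6.32% of all genes. In KI mice, Edem1 was (log2 0.89 ± 0.37, adjusted p = 0.396), as were 7.3% of all genes. Averaged over genotypes, where 1.01% of all genes were called, Jchain was 9.44-fold higher in MemB (adjusted p = 6.28e-05, log2 2.88 without control MemB replicate 3 and 3.98 without control B2 replicate 1), and Mzb1 was 1.5-fold higher without passing the test (log2 0.59 ± 0.25, adjusted p = 0.283, edgeR). Those comparisons share libraries with the KI comparisons above.

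Beyond the members, 5 lists of secretory pathway genes were examined, 87 genes in all, of which 84 could be tested. They covered regulators of the unfolded protein response, ER folding, translocation and signal peptidase, ER-associated degradation, and ER to Golgi transport. In KI against control MemB edgeR and DESeq2 called 0 of the 84, where they called 0.284% and 4.88% of all genes. At an unadjusted p below 0.05, 3 were higher and 0 lower, 3.57% of the lists against 11.1% of all genes in either direction. The fitted change was positive for 44 and negative for 40. List medians lay between -0.07 (ER to Golgi transport) and 0.19 (ER-associated degradation) on the log2 scale, where the median of all genes was -0.03.

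Among the 7 tested regulators of the unfolded protein response, those with the smallest p were Eif2ak3, which encodes the sensor PERK (log2 -0.90 ± 0.50, adjusted p = 0.520), and Creb3l2, a transcription factor related to ATF6 (-1.17 ± 0.82, adjusted p = 0.639). Among 21 ER folding genes they were Manf, a secreted ER stress protein, at 43.9, 70.8 and 39.9 normalized CPM in KI MemB and 18.4, 25.9 and 18.3 in control MemB (log2 1.3 ± 0.56, adjusted p = 0.373), and Dnajb11, a cochaperone of BiP (log2 0.67 ± 0.33, adjusted p = 0.452). Among 21 translocation genes they were Sec63 (-0.53 ± 0.36, adjusted p = 0.621) and Srprb (1.04 ± 0.72, adjusted p = 0.632), and among 13 degradation genes Syvn1 (0.58 ± 0.31, adjusted p = 0.499) and Derl2 (0.77 ± 0.43, adjusted p = 0.528), all by edgeR.

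Among 22 genes of transport from ER to Golgi they were Surf4, a cargo receptor (log2 1.26 ± 0.49, adjusted p = 0.354), and Sar1b, the GTPase that starts COPII coats, at 52.6, 15.5 and 34.1 normalized CPM in KI MemB and 8.69, 6.18 and 13.1 in control MemB (log2 1.87 ± 0.77, adjusted p = 0.365, edgeR). Over the 5 lists, 8 genes (9.52%) were higher in KI MemB without overlap, namely Manf, Dnajb11, Txndc5, Edem2, Syvn1, Derl3, Sec22b and Sar1b, and 3 (3.57%) were lower, namely Sec16a, Mcfd2 and Kdelr1. The shares over all genes were 6.01% and 6.08%, and the difference between the lists and all genes was not tested.

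**Figure D3:**
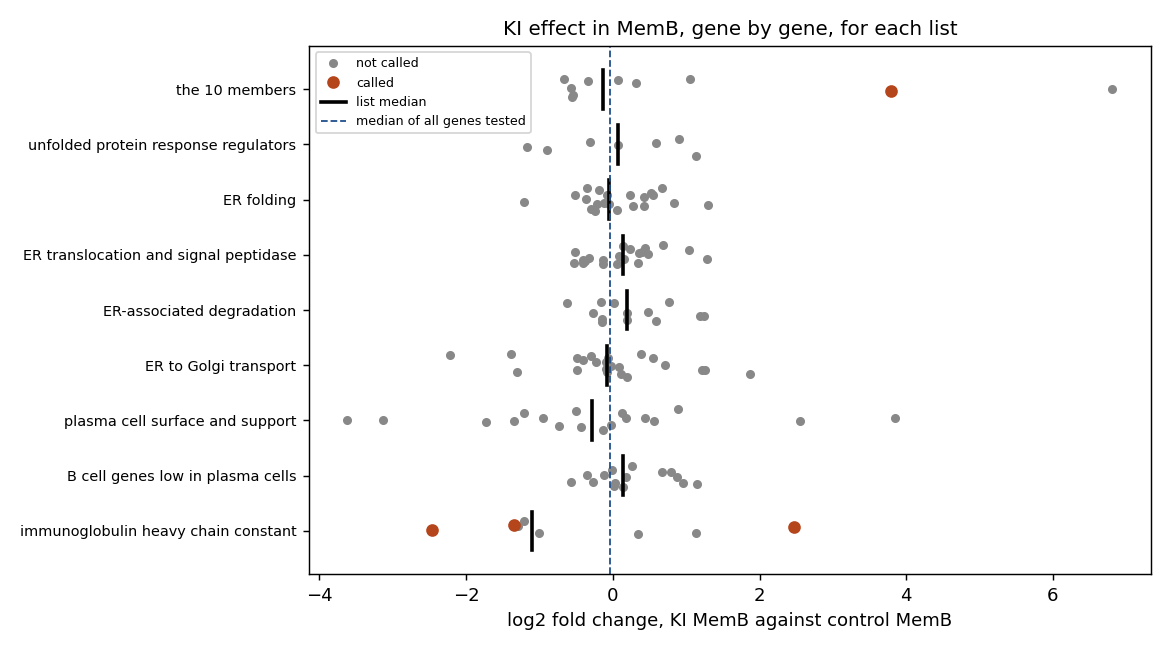
Log2 fold change of KI against control MemB (x axis) for every tested gene of each list (y axis), with called genes in red, list medians as black bars and the median of all genes (-0.03) as a dashed line. The medians of the secretory lists lie between -0.07 and 0.19, and the called genes are Jchain, Igha, Ighm and Ighd.

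Among the lists other than markers of other cells, calls in KI MemB were found for immunoglobulin heavy chain genes. Igha, whose product the J chain polymerises, was at 4289, 2348 and 4733 normalized CPM in KI MemB and at 351, 631 and 1076 in control MemB, 5.52-fold higher (log2 2.47 ± 0.39, adjusted p = 0.0294, edgeR). Ighm fell by 2.46 on the log2 scale (SE 0.17, adjusted p = 4.81e-11) and Ighd by 1.35 (SE 0.18, adjusted p = 9.40e-05). Of the 8 heavy chain constant genes, these 3 were called, 1 higher and 2 lower, where 0.284% of all genes were. The call of Igha was lost in 8 of the 12 fits without a single library, namely any B2 library, control MemB replicate 2 or KI MemB replicate 1, and that of Ighd with only the compared groups fitted. In B2, Igha was 45.0 to 65.9 in control and 48.2 to 65.6 in KI libraries. Membrane and secreted forms of these transcripts were not separated in the counts.

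Of 20 further genes of the PC surface and its support 18 could be tested, and 0 were called in KI MemB by edgeR or by DESeq2, against 0.284% and 4.88% of all genes, with 2 higher and 2 lower at an unadjusted p below 0.05 (22.2% of the list against 11.1% of all genes). Without KI MemB replicate 2, 1 gene of the list was called. Zbtb20, a factor that sustains PCs, was lower, at 356, 541 and 442 normalized CPM in KI MemB against 953, 804 and 830 in control MemB (log2 -0.95 ± 0.21, adjusted p = 0.0295, edgeR), just inside the fold limit. Itga4, an integrin subunit, was at 2455 to 2533 in KI and 1701 to 1951 in control MemB (log2 0.44 ± 0.14, adjusted p = 0.282). The median of this list was -0.28.

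A further 3 genes were looked at after their values were seen. Tnfrsf17, which encodes the PC survival receptor BCMA, had 303, 165 and 1 counts in KI MemB (10.3, 5.05 and 0.0325 normalized CPM) and at most 0.880 normalized CPM in control MemB. Ccr9, a gut homing receptor of IgA cells, was at 29.7, 37.9 and 5.82 in KI MemB and at 1.02, 3.4 and 8.11 in control MemB. Derl3 of the degradation list, typical of secretory cells, was at 30.0, 10.4 and 9.47 in KI MemB and at 7.10, 8.91 and 5.78 in control MemB. Sdc1, Tnfrsf17 and Derl3 were highest in KI MemB replicate 1, and replicate 3, with the most Jchain and Igha, was lowest of the KI MemB libraries for Tnfrsf17, Ccr9 and Derl3. The same replicate 3, the female library of the group, was the highest KI MemB library for 6 of the 9 members other than Jchain. These were Prdm1, Irf4, Hspa5, Sec11c, Edem1 and Slamf7. Replicate 1 was highest for 2 and replicate 2 for 1. The share of all genes highest in each library was not computed, so no reading is drawn from these counts.

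**Figure D4:**
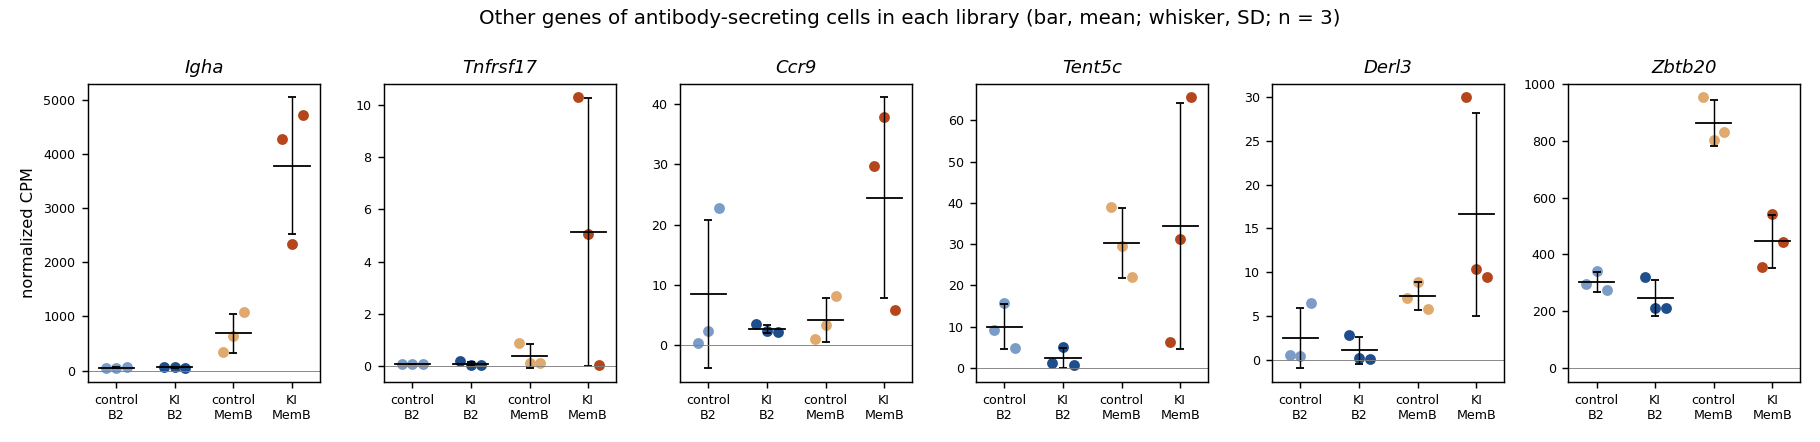
Normalized CPM (y axis, linear) of 6 genes related to antibody-secreting cells in every library, by group on the x axis, with means as bars and SD as whiskers (n = 3). Igha is at 2348 or more in all 3 KI MemB libraries and Zbtb20 is below control MemB in all 3, while Tnfrsf17, Ccr9 and Tent5c are uneven among the KI MemB libraries.

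No gene of those that B cells lose when they become PCs was called in KI MemB, apart from Fcer2a when low counts were not filtered. Of 15 such genes, 4 were higher and 0 lower at an unadjusted p below 0.05 (26.7% against 11.1% of all genes), and the list median was 0.13. Fcer2a, which encodes CD23, was at 76.6, 150 and 135 normalized CPM in KI MemB and 66.9, 26.9 and 69.7 in control MemB (log2 1.15 ± 0.30, adjusted p = 0.116), and Irf8 was at 122, 129 and 135 against 47.0, 67.0 and 85.0 (log2 0.96 ± 0.31, adjusted p = 0.278, edgeR). Both edgeR and DESeq2 called 0 of the 15, against 0.284% and 4.88% of all genes. In control mice, Fcer2a was lower in MemB than in B2 (log2 -2.30 ± 0.31, adjusted p = 6.87e-05), as was Cr2 (log2 -1.53 ± 0.34, adjusted p = 0.0406), where 0.264% of all genes were called. Cr2 lost its call without any one of the 6 control libraries, in the non-robust fit and with only the compared groups fitted.

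The genes whose log2 level most resembled that of Jchain over the 12 libraries were an unnamed transcript (listed as X4930515G01Rik, Pearson r = 0.925), Plbd1 (0.920), Ctxn1 (0.919), Ect2 (0.917) and Timd2 (0.905). Members and genes without a symbol were left out of this ranking. The 12 points fall into the 3 KI MemB libraries and the rest, so these values describe that separation and carry no test. Ect2, needed for cytokinesis, was at 12 to 44.5 normalized CPM in KI MemB and 0.454 to 5.06 in control MemB. Among members, r with Jchain was 0.603 for Edem1, 0.428 for Prdm1 (Spearman rho 0.587) and 0.284 for Sdc1, and between -0.137 (Xbp1) and 0.239 (Mzb1) for the other 6. The share of all tested genes with an r no higher was 96.1% for Edem1, 88.3% for Prdm1, 78.4% for Sdc1 and 37.1% for Xbp1.

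Markers of other cells that also express Jchain or secretory genes were measured beside these results. The paper reports that PCs, nearly all IgA+, accumulated in the PerC of KI mice and were almost absent in controls. Summed markers of IgA PCs, 7 genes that include Jchain and other members, were at 653 to 1483 normalized CPM in control MemB and 2727 to 5238 in KI MemB. Igha alone was at 351 to 1076 and 2348 to 4733. Of the 7, 5 were fitted higher and 2 lower. Igha and Jchain were called, as 0.284% of all genes were. The paper gates B-1 cells as IgD-IgM+, so the IgD-IgM- gate of MemB selects against them. Summed markers of B-1 cells, which are common in the PerC and secrete natural antibody, were at 599 to 719 normalized CPM in control MemB and at 567 to 831 in KI MemB. The single markers differed, 2 being fitted higher and 3 lower. Of 5, Cd5, Bhlhe41 and Ighv11-2 were lower in every KI MemB library, as were 6.08% of all genes, Ighv11-2 being called as 0.284% of all genes were (log2 -5.63 ± 0.81, adjusted p = 0.000222, edgeR), and Tppp3 was at 154 to 443 in KI and 76.8 to 170 in control MemB. Macrophage markers summed to 50.2 to 99.7 in control and 47.5 to 100.1 in KI MemB, but 3 of the 4 that could be tested were fitted lower. At an unadjusted p below 0.05, 2 were lower (50% against 11.1% of all genes), and 0 were called. Mast cell markers were at 1.44 to 207 and 0.748 to 1.53, and of the 2 tested, both fitted lower, Cma1 was called (adjusted p = 0.0375, edgeR) although its groups overlapped. Dendritic cell markers were at 11.4 to 55.7 and 38.8 to 60.5, and of 6 such genes the 2 that could be tested were fitted higher in KI MemB. Of these 2, Zbtb46 was higher without overlap, as were 6.01% of all genes, and neither was called. The part of these cells in the levels of the members was not tested.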

How the data were processed

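The authors amplified total RNA from sorted cells (Ovation RNA-seq System V2), sequenced paired ends, trimmed reads with cutadapt 4.5, aligned them with STAR 2.7.11a to mm39 and deposited RSEM 1.3.3 expected counts per gene. Versions are from the submitters' processing notes, and strand and annotation release are not given in the sources used here. Counts were rounded and 0 columns lacked a sample. Rows of ribosomal RNA stayed in the main fit. Genes were filtered with edgeR's filterByExpr (minimum count 10), scaled by TMM and fitted as 4 group means over 12 libraries with edgeR 4.0.16 (robust quasi-likelihood, R 4.3.3), and p-values were adjusted by Benjamini-Hochberg over 15148 genes. A gene was called at an adjusted p below 0.05 with a log2 fold change beyond 1. SE is the log2 fold change over the square root of the F statistic. The gene-wise coefficient of biological variation of the members ran from 27.8% (Irf4) to 154% (Sdc1), the common value being 91.4%. Intervals and counts near 0 cover counting and replicate error only.

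The members and gene lists were chosen with earlier results of these data known. Besides members, Igha, Ighm and Gpr34, genes were named by rule: from each list the called genes, at most 4 by p, or, with fewer than 2 called, the 2 with the smallest p, and the 5 genes most like Jchain. In the text the rule is used for the KI comparison in MemB, with few from other comparisons. Outside the rule, and after their values were seen, Cd5, Bhlhe41, Ighv11-2, Tppp3, Zbtb46, Cma1, Txndc5, Edem2, Sec22b, Sec16a, Mcfd2, Tnfrsf17, Ighg1, Ighg2b and Xist were named. Promoters came from a RefSeq table (GRCm38), gene models from GENCODE M39 (GRCm39). In that annotation 7 members overlap another gene, which can share reads: Xbp1, Sdc1, Mzb1, Hspa5, Sec11c, Edem1 and Slamf7. Alternatives were other scalings and filters, a non-robust fit, DESeq2 1.42.0, replicate blocks, leaving out immunoglobulin genes, ribosomal RNA or single libraries, and fitting the compared groups alone.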

Additional observations from a re-analysis of the deposited data

Results flagged for a closer look

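For 5 of the genes named, MemB and B2 differed in their response to the KI allele by the edgeR interaction test adjusted over all genes. For Jchain the difference was 4.43 on the log2 scale (adjusted p = 0.0462), the rise being in MemB. Jchain was picked with that rise known, so its value is a description, and its call was lost when any one of 8 libraries was left out and in 4 of the 9 other settings. For Ighm it was -2.04 (adjusted p = 1.08e-05) and for Ighd -1.23 (adjusted p = 0.0462), both lower in KI MemB. The Jchain and Ighd p-values are just under the threshold. Of the 8 heavy chain constant genes, 2 were called in this test, where 0.066% of all genes were. There were 1 to 3 when single libraries were left out and 0 to 3 under the other settings, 0 being the fit without immunoglobulin genes. Ighd was not called with upper-quartile scaling, in the non-robust fit or with the replicate block. Among the fits without a single library, Ighd kept its call only without control MemB replicate 1, KI MemB replicate 2 or KI MemB replicate 3. The difference was -5.48 for the B-1 marker Ighv11-2 (adjusted p = 0.0151) and -9.45 for the mast cell marker Cma1 (adjusted p = 0.0462), both named after their values were seen. Summed mast cell markers were uneven, at 1.37, 1.10 and 66.8 normalized CPM in KI B2 and 44.6, 1.44 and 207 in control MemB. Ighv11-2 was higher in every MemB than in every B2 library of control mice (log2 1.84), and in KI mice it was lower in every MemB than in every B2 library (log2 -3.64).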

How the results depend on the processing

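Jchain kept its call in KI against control MemB under all 10 other settings (adjusted p from 1.54e-07 without a low-count filter to 0.0319 in the non-robust fit), and the members called were 0 to 1 when single libraries were left out, 0 only without KI MemB replicate 3. The interaction count of 1 member was 0 with upper-quartile scaling, in the non-robust fit, with the replicate block (Jchain 4.12) and without immunoglobulin genes, and 0 to 1 leaving out libraries (Jchain 2.94 to 5.14), the cause not being tested. Over all genes DESeq2 called 767 against 43 in MemB and 190 against 1 in B2, 425 against 10 for the interaction, 662 against 40 and 623 against 55 for MemB against B2 in control and KI mice, and 819 against 153 averaged. Without a low-count filter the counts were 90, 8, 44, 96, 105 and 236 in the same order, and in the non-robust fit 22, 1, 4, 24, 37 and 116. With only the compared groups fitted, 15 genes were called in MemB. Leaving out single libraries gave 15 to 50 genes in MemB (15 without KI MemB replicate 1, 19 without control MemB replicate 2, 24 and 26 without KI MemB replicate 3 and control MemB replicate 1), 5 to 10 for the interaction, 19 to 42 and 27 to 60 for MemB against B2 in control and KI mice, and 104 to 157 averaged. The main fit treats all libraries as independent, though B2 and MemB libraries of the same number may share a mouse. Over all tested genes, same-numbered libraries hardly deviated together (correlations -0.0139 to 0.0344), which cannot settle that for single genes. The replicate block, which also holds sex, is given as an alternative, and it changed no other call of a member.

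Some log2 values that had passed no test changed sign. In B2 with the replicate block, Sdc1 was 0.78 and Sec11c -0.022. The interaction of Mzb1 was -0.0129 with upper-quartile scaling, -0.0118 without a filter, -0.00281 with a minimum count of 50, -0.0509 with the block and -0.00471 without ribosomal RNA. For MemB against B2, Prdm1 was -0.0665 in control mice with a mouse replicate block, and -0.77 in KI mice and -0.18 averaged with the block. In KI mice Hspa5 was -0.072 with upper-quartile scaling and -0.019 and -0.00527 with the 2 blocks, and averaged Sdc1 was -0.48 and -0.94 with them. Leaving out single libraries turned signs over these ranges. For KI in MemB they were Prdm1 -1.87 to 1.62 and Xbp1 -0.29 to 0.70, and for KI in B2 Edem1 -0.33 to 0.0799, Hspa5 -0.20 to 0.28, Jchain -1.04 to 0.86, Prdm1 -2.05 to 2.20, Sdc1 -4.60 to 2.44, Sec11c -0.33 to 0.28 and Slamf7 -0.13 to 0.61. For the interaction they were Mzb1 -0.26 to 0.18, Prdm1 -2.77 to 1.48, Sec11c -0.615 to 0.00119 and Xbp1 -0.98 to 0.21. For MemB against B2 averaged they were Prdm1 -0.12 to 2.08, Sdc1 -2.84 to 2.39 and Xbp1 -0.37 to 0.22, in KI mice Hspa5 -0.24 to 0.18, Irf4 -0.0732 to 0.22, Prdm1 -0.685 to 2.82, Sdc1 -1.59 to 7.31, Sec11c -0.0453 to 0.57, Slamf7 -0.49 to 0.0494 and Xbp1 -0.62 to 0.0065, and in control mice Prdm1 -0.85 to 3.37, Sdc1 -5.35 to 0.21 and Xbp1 -0.48 to 0.71.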

Other observations

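The ratio of Jchain to Igha was computed after both had been seen. In KI MemB, Jchain stood at 3.54, 3.07 and 4.14% of the normalized CPM of Igha, and in control MemB at 1.91, 0.882 and 1.67%. All 3 KI libraries were above all 3 control libraries, but in B2, where both genes are low, the ratio was 2.46 to 25.1% in control and 3.79 to 7.36% in KI libraries, ranges that overlap that of KI MemB. These are ratios within a library and no test was run.

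Neither edgeR in the main fit nor DESeq2 called an IgG heavy chain gene between KI and control MemB. The shares of all genes called were 0.284% and 4.88%. Without a low-count filter edgeR called Ighg3, as it did 0.349% of all genes. Ighg2b was at 1788, 1141 and 938 normalized CPM in KI and 1015, 983 and 1057 in control MemB, and Ighg1 was at 62.3 to 131 and 106 to 377. Ighg2c was at 86.4 to 93.6 in KI and 107 to 238 in control MemB, and Ighg3 at 96.6 to 245 and 320 to 358, both lower without overlap. With Ighm and Ighd, 4 of the 8 heavy chain constant genes were lower in KI MemB without overlap, against 6.08% of all genes.

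Between MemB and B2, Tent5c, which stabilises immunoglobulin transcripts, was higher in MemB of KI mice (log2 3.88 ± 0.88, adjusted p = 0.0333, edgeR) and so was Itga4 (log2 1.45 ± 0.15, adjusted p = 1.05e-07), while Cxcr4, which guides PCs to bone marrow, was lower (log2 -1.68 ± 0.38, adjusted p = 0.0308). These were the 3 calls among 18 tested genes of the PC surface and its support, where edgeR called 0.363% and DESeq2 4.07% of all genes. Of these 3, only Itga4 was called without KI MemB replicate 3 or in the non-robust fit, and 5 genes were called by DESeq2. Tent5c also lost its call with the mouse replicate block and with only the compared groups fitted. Single libraries that ended its call were also KI B2 replicates 1 and 3 and KI MemB replicate 2. For Cxcr4 they were also KI B2 replicates 1 and 2 and KI MemB replicate 1. Hsp90b1, the ER form of HSP90, was 0.55 ± 0.14 higher in MemB on the log2 scale over both genotypes (adjusted p = 0.0398), under the fold limit.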
